A study of Mus musculus with 10 samples.

Results

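The set comprised 9 genes of matricellular and closely related matrix proteins, chosen by name: Spp1 (osteopontin), Postn (periostin), Tgfbi (transforming growth factor beta-induced protein), Thbs1 and Thbs2 (thrombospondins), Tnc (tenascin C), Sparc (osteonectin), Sparcl1 (hevin) and Fn1 (fibronectin). All 9 had a single match by symbol among the 41091 gene entries of the count files, and all 9 passed the filter on low counts in every comparison. They were measured by strand-specific total RNA sequencing of adherent cultures from the olfactory epithelium of adult C57BL6 mice, taken 9 days after a methimazole lesion, which destroys the epithelium and starts its regrowth. The cells were grown on gelatin-coated plastic in NeuroCult medium with EGF, FGF2 and heparin, and every culture carried a lentiviral short hairpin RNA. The hairpin was non-targeting in 4 libraries (shCTR 1, 2, 5 and 6), directed against Cbx7 in 3 (shCBX7 1, 2 and 5) and against Cbx8 in 3 (shCBX8 1, 2 and 6). Both target genes encode chromodomain subunits of PRC1, a Polycomb complex that represses transcription. The labels do not say whether libraries of a group came from separate animals or cultures, so the p-values measure the spread between these libraries, which may be technical. No group without a hairpin was analysed here.

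Matricellular proteins are secreted into the extracellular matrix but do little to build it; they bind matrix fibres, growth factors and cell surface receptors and so modulate adhesion, migration and repair. Osteopontin, periostin, fibronectin and tenascin C are ligands of integrins, and osteopontin also binds CD44. Thrombospondins bind CD36 and CD47, and thrombospondin 1 can release active TGF-beta from its latent form. SPARC binds collagen, and hevin is its close relative. Periostin and TGFBI are built of fasciclin domains, and fibronectin is a fibre-forming protein rather than a classical matricellular one. In the olfactory mucosa such matrix lies in the basal lamina and in the lamina propria below it, which holds fibroblasts, vessels, glands and axon bundles.

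The letters just upstream of the start sites are shown for Spp1, which gives the set its name, and for Tgfbi, Postn and Thbs2, which had the widest differences between groups. RefSeq (GRCm38.p6) gave a start site for 6 of the 9 members (these 4, Tnc and Sparc), and each sequence is the 250 bases before it, written 5′ to 3′ on the gene's strand. The RefSeq start of Sparc lies 3103 bases from its GENCODE start, so its window falls inside the annotated gene. For the others this distance was 0 to 63 bases. Sparc is still counted among the 6 below. Spp1 lies at chr5:104434861-104435110 (plus strand), Tgfbi at chr13:56609336-56609585 (plus), Postn at chr3:54360857-54361106 (plus) and Thbs2 at chr17:14694263-14694512 (minus). Capitals mark matches on either strand to 3 motifs: TATAAA for the core promoter element of that name, CCAAT for the binding letters of NF-Y, and TGTGGT for those of RUNX factors.
Spp1: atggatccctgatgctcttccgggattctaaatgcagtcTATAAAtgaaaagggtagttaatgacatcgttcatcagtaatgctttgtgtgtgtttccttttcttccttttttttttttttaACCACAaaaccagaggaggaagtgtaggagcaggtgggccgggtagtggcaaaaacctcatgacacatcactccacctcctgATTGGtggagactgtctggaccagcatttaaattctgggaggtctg
Tgfbi: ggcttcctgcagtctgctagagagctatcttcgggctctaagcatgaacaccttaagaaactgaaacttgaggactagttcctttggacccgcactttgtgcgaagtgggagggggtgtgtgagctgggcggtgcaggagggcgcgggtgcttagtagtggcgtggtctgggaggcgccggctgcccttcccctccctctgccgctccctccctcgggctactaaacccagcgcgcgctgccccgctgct
Postn: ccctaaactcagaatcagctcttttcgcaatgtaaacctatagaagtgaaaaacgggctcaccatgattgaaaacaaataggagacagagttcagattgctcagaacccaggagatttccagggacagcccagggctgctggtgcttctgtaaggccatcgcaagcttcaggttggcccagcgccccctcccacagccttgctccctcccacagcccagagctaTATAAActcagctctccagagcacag
Thbs2: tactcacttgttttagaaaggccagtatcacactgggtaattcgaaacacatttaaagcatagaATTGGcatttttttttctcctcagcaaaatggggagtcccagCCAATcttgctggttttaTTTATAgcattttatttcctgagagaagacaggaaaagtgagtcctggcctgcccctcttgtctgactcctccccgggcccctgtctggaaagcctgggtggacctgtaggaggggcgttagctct
The Postn sequence holds TATAAA from 26 to 21 bases before the start. In Spp1 the same letters stand from 211 to 206 bases before the start, CCAAT from 46 to 42 and TGTGGT from 128 to 123, the last 2 of these on the opposite strand. Thbs2 has TATAAA on the opposite strand from 126 to 121 bases before the start, and CCAAT once on each strand. TATAAA was present anywhere in the window in 4 of the 6 members (Spp1, Postn, Thbs2 and Tnc), against 12.4% of all 32841 RefSeq promoters cut to the same length. The match in Tnc lies from 126 to 121 bases before the start, so only that of Postn lies close to the start. CCAAT was present in 2 of the 6, against 33.9%, and TGTGGT in 1, against 14.0%. TGANTCA (AP-1), GGAATG (TEAD) and GTCTAGAC (SMAD) had no match in the 6, against 6.75, 12.6 and 0.167% of all promoters; the 6 motifs do not overlap one another in these windows. Tgfbi stood apart in base composition, with 15 CpG dinucleotides and 62.4% G and C, where the median promoter had 6 and 52.4%. Spp1 and Thbs2 had 3 CpG each, Postn and Sparc 4, and Tnc 8. These matches describe letters and do not show binding. The sequences and their values are descriptions of 6 members and were not related to the direction of change by a test.

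The libraries held 22763014 to 50463172 counts in genes. Levels are CPM, the count relative to the scaled library size, and a gene is said to have risen or fallen where the adjusted p of edgeR's quasi-likelihood test was under 0.05. Cbx8 averaged 12.3 ± 2.55 CPM in shCTR (SD, n = 4) and 4.94 ± 0.219 CPM in shCBX8 (n = 3) and fell, with a log2 fold change of -1.31 and adjusted p = 0.00416; in the fit with a covariate described further on it was -1.06 (adjusted p = 0.0839). Cbx7 measured 13.2 ± 5.55 CPM in shCTR and 8.26 ± 4.75 CPM in the libraries labelled shCBX7 (log2 fold change -0.67, adjusted p = 0.929), so its level does not check that label. Of all reads, 21.7, 19.6, 14.0 and 9.83% were unmapped in shCTR 1, 2, 5 and 6 and 5.03 to 7.81% elsewhere. Counts on the strand opposite to 1455 olfactory and vomeronasal receptor genes summed to 103, 82.5, 63.7 and 30.7 CPM in the same 4 controls and to 10.5 to 25.4 CPM elsewhere. The log2 of that sum served as a covariate in a further fit, called the opposite-strand covariate here. Every control lay above every other library in that sum, so the covariate is confounded with both comparisons against shCTR. A call gained or lost in its fit there cannot be assigned to group or covariate. A fit without shCTR 1 and 2 was also made. On the members themselves, opposite-strand counts were at most 0.636% of the level in every library, except for Tgfbi (up to 4.35%) and Sparcl1 (up to 1.89%).

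Set per length, osteopontin stood far above the other members in the control cultures. Levels per kilobase of annotated exon (RPKM, computed here as CPM per 1000 bases) averaged 8674 ± 5449 for Spp1 in shCTR (SD, n = 4), followed by 491 ± 261 for Sparc, 252 ± 230 for Postn, 159 ± 59.2 for Fn1, 128 ± 79.7 for Thbs2, 73.6 ± 44.4 for Thbs1, 60.7 ± 47.0 for Tnc, 51.8 ± 21.8 for Tgfbi and 24.4 ± 22.3 for Sparcl1. Each difference between neighbours in this order was smaller than the larger of their SDs, except those between Spp1 and Sparc and between Tgfbi and Sparcl1. Spp1 also held rank 3 of all gene entries by mean share of gene counts over all 10 libraries, and it took 0.773 to 2.70% of gene counts in shCTR. Among protein-coding genes it held rank 2 or 3 per length in each control library, rank 1 in shCBX7 1, rank 2 in shCBX7 2 and 5, rank 10 in shCBX8 1, rank 2 in shCBX8 2 and rank 11 in shCBX8 6. In shCBX8 the RPKM order changed to Spp1 (3179 ± 2902, n = 3), Sparc (142 ± 78.5), Thbs1 (106 ± 37.6), Fn1 (81.8 ± 35.5), Tnc (65.1 ± 31.9), Thbs2 (10.2 ± 10.5), Postn (4.83 ± 1.59), Sparcl1 (3.17 ± 1.76) and Tgfbi (0.856 ± 0.637). Postn stood behind Spp1 and Sparc alone in the control order, and ahead of Sparcl1 and Tgfbi alone in the shCBX8 order.

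**Figure D1:**
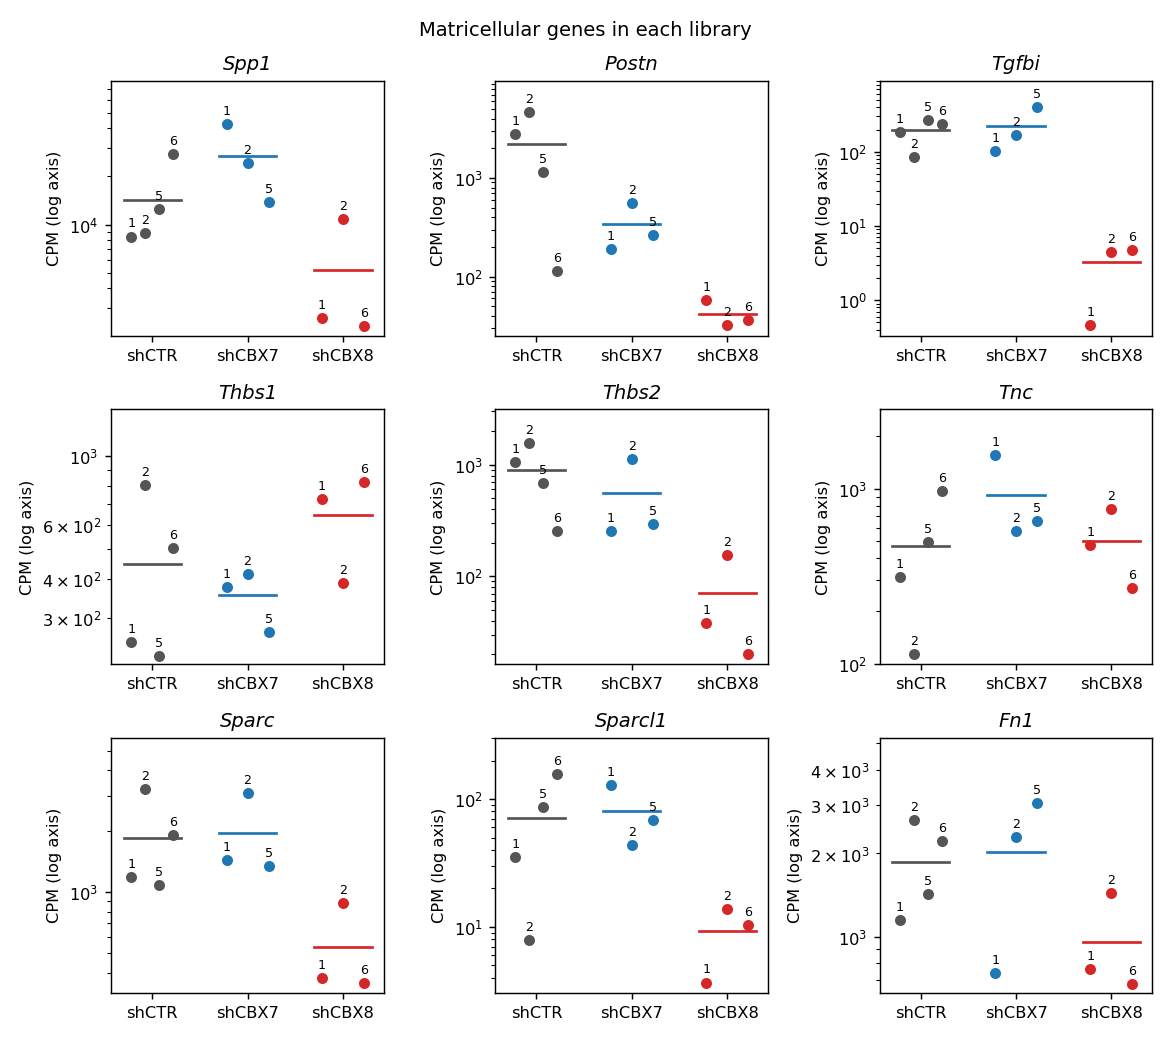
CPM of the 9 genes in each library on log axes; points are libraries labelled by replicate number, and lines are group means (shCTR n = 4, shCBX7 n = 3, shCBX8 n = 3). Tgfbi lies at 84.5 to 402 CPM in the shCTR and shCBX7 libraries and at 0.461 to 4.75 CPM in shCBX8.

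Control libraries also differed among themselves. The highest shCTR value was 40.7 times the lowest for Postn and 20 times for Sparcl1, then 8.57 times for Tnc, 6.17 for Thbs2, 3.54 for Thbs1, 3.26 for Spp1, 3.22 for Tgfbi, 2.97 for Sparc and 2.30 for Fn1. The median of this ratio was 1.69 over all genes tested and 1.40 over the 4525 genes that averaged 50 CPM or more, a limit chosen after the data were seen. The members did not vary in 1 common pattern. Postn and Thbs2 were highest in shCTR 2 and lowest in shCTR 6, whereas Sparcl1 and Tnc were highest in shCTR 6 and lowest in shCTR 2. Spp1 was also highest in shCTR 6, and Sparc and Fn1 were highest in shCTR 2.

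In shCBX8, 5 of the 9 members fell against shCTR (Postn, Tgfbi, Thbs2, Sparc and Sparcl1) and none rose. Over all 16669 genes tested, 32.9% passed, 15.9% lower and 17% higher, and of the 4525 genes at 50 CPM or more 20.5% fell and 15.8% rose. Of the members, 4 (Postn, Tgfbi, Thbs2 and Sparc) were lower in every shCBX8 library than in every shCTR library, where 19.5% of all genes were and 22.9% were higher without overlap. The median log2 fold change was -1.79 over the members and -0.01 over all genes. Without shCTR 1 and 2, 3 members fell (Postn, Tgfbi and Sparcl1), where 2409 of 16900 genes passed, 1105 of them higher and the rest lower. With the opposite-strand covariate, 3 fell (Tgfbi, Sparcl1 and Spp1, the last not called in the main fit), where 2308 of 16669 genes passed, 1071 of them higher. In these mixed cultures, fewer cells of a type and less RNA per cell cannot be told apart.

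The summed markers of several cell types did not overlap between shCTR and shCBX8. The 14 fibroblast markers summed to 10730, 32283, 7537 and 6916 CPM in controls 1, 2, 5 and 6, 6359, 19919 and 8308 CPM in shCBX7 1, 2 and 5, and 361, 3667 and 248 CPM in shCBX8 1, 2 and 6. Of the 14, 10 were lower in every shCBX8 library than in every control, where 19.5% of all genes were. By the test 5 fell (Col1a1, Col5a1, Col6a1, Col6a2 and Fbn1), where 15.9% of all genes fell. All 14 were detected in each library. None of the 14 passed without shCBX8 1, without shCBX8 6, without shCTR 1 and 2 or with the opposite-strand covariate, whereas 13 fell with the replicate number as a block and 13 without shCBX8 2, and 11 fell with DESeq2. Among the controls the fibroblast sum was highest in shCTR 2, where Postn, Thbs2 and Sparc were highest and Tgfbi and Sparcl1 lowest. Markers of horizontal basal cells, the reserve stem cells of the epithelium, summed to 365 to 1852 CPM in shCTR, 336 to 1663 CPM in shCBX7 and 2962 to 6591 CPM in shCBX8. Krt17 gave most of that rise, from 246 ± 226 to 3344 ± 1654 CPM. Of the 9, 3 rose (Krt17, Trp63 and Lamb3), where 17% of all genes rose. None passed without shCBX8 6, without shCTR 1 and 2 or with the covariate, and Icam1 was at -0.82 (adjusted p = 0.151). Sustentacular markers summed to 174 to 1522 CPM in shCTR and 3504 to 9816 CPM in shCBX8, mostly from the keratins Krt8 and Krt18. Of 6 tested, these 2 rose, none fell, and Gstm2 alone was below 0 (-1.02, adjusted p = 0.0611). Neither keratin passed without shCBX8 1, without shCBX8 6, without shCTR 1 and 2 or with the covariate. Smooth muscle and pericyte markers summed to 645 to 1860 CPM and 2003 to 6099 CPM, mostly from Rgs5 in shCBX8. Of 7 tested, 2 rose (Rgs5 and Mcam) and none fell, with Acta2 (-0.91) and Myh11 (-0.80) below 0. Over all genes 17% rose. Markers of globose basal cells and neuronal progenitors summed to 35.8 to 60.5 CPM in shCTR and 88.3 to 175 CPM in shCBX8. Olfactory neuron markers summed to 114 to 156 CPM and 43.5 to 110 CPM. Both of these lists held called markers in each direction. The part of any marker set in the members' differences was not tested.

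Tgfbi, an RGD-bearing fasciclin-domain protein named for its induction by TGF-beta, fell under each setting tried. It measured 185, 84.5, 272 and 240 CPM in controls 1, 2, 5 and 6, 103, 170 and 402 CPM in shCBX7 1, 2 and 5, and 0.461, 4.48 and 4.75 CPM in shCBX8 1, 2 and 6. The shCBX8 libraries lay far below all 7 others, with 22, 149 and 221 counts. Tgfbi (ENSMUSG00000035493, chromosome 13, 56609523 to 56639562, plus strand, GRCm38) fell 60.7-fold against shCTR, a log2 fold change of -5.92 with SE 0.92 (adjusted p = 0.00339). Against shCBX7 its log2 fold change was -6.13 (SE 0.95, adjusted p = 0.00411). Both calls remained under each of the 23 other settings tried, where the value against shCTR ran from -6.59 to -5.40. Against shCTR it was 0.20 in shCBX7 (adjusted p = 0.986).

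Postn, the other fasciclin-domain member, fell 52.1-fold in shCBX8, but its controls covered a wide range. It measured 2814, 4691, 1145 and 115 CPM in controls 1, 2, 5 and 6, 192, 561 and 264 CPM in shCBX7 1, 2 and 5, and 57.8, 32 and 36.4 CPM in shCBX8 1, 2 and 6. The shCBX8 values lay close together below all others, and shCTR 6 lay below every shCBX7 library. Postn (ENSMUSG00000027750, chromosome 3, 54361109 to 54391037, plus strand) had a log2 fold change of -5.70 against shCTR (SE 1.14, adjusted p = 0.00754). With the opposite-strand covariate, which is highest in the controls where Postn is highest, it was -0.85 and no longer passed (adjusted p = 0.685), and without shCTR 1 and 2 it was -3.92 (adjusted p = 0.032). Without shCTR 2 alone it was -5.03 (adjusted p = 0.013). In the libraries labelled shCBX7 the log2 fold change was -2.69 (SE 0.98, unadjusted p = 0.0213 and adjusted p = 0.691), and it did not pass. Between shCBX8 and shCBX7 the groups did not overlap, and the value of -3.01 (SE 1.02) missed the threshold with adjusted p = 0.0529; it passed under 8 other settings, such as DESeq2 (adjusted p = 0.00426).

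The thrombospondins parted. Thbs2, a matricellular inhibitor of vessel growth, measured 1061, 1569, 689 and 254 CPM in controls 1, 2, 5 and 6, 253, 1116 and 296 CPM in shCBX7 1, 2 and 5, and 38.3, 156 and 20.2 CPM in shCBX8 1, 2 and 6. Every shCBX8 library lay below every other library, and shCBX8 2 was the highest of the 3. Thbs2 (ENSMUSG00000023885, chromosome 17, 14665500 to 14694235, minus strand) fell 12.5-fold against shCTR, a log2 fold change of -3.64 with SE 0.96 (adjusted p = 0.0199). The call ended without shCBX8 1 (adjusted p = 0.0813), without shCBX8 6 (0.0684), without shCTR 1 and 2 (0.0948) and with the covariate (0.427), and without shCBX8 2 the value was -4.93. Thbs1, which shares the receptors CD36 and CD47, measured 252, 805, 227 and 504 CPM in controls 1, 2, 5 and 6, 379, 417 and 271 CPM in shCBX7 1, 2 and 5, and 723, 388 and 824 CPM in shCBX8 1, 2 and 6. Its groups overlapped throughout. Thbs1 (ENSMUSG00000040152, chromosome 2, 118111876 to 118127133, plus strand) had a log2 fold change of 0.53 in shCBX8 (SE 0.44, adjusted p = 0.382) and -0.33 in shCBX7 (adjusted p = 0.952). The difference between the 2 genes was not tested.

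Sparc and Sparcl1, a pair of related collagen-binding and counter-adhesive proteins, both fell in shCBX8. Sparc measured 1194, 3231, 1089 and 1924 CPM in controls 1, 2, 5 and 6, 1439, 3085 and 1339 CPM in shCBX7 1, 2 and 5, and 376, 880 and 355 CPM in shCBX8 1, 2 and 6. The shCBX8 libraries lay below all others, with shCBX8 2 nearest to them. Sparc (ENSMUSG00000018593, chromosome 11, 55394500 to 55423183, minus strand) fell 3.46-fold, a log2 fold change of -1.79 with SE 0.53 (adjusted p = 0.0295). The call ended without shCBX8 1 (adjusted p = 0.113), shCBX8 6 (0.111) or shCTR 2 (0.0543), without shCTR 1 and 2 (0.0905) and with the covariate (0.138).

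Sparcl1, a far less abundant gene, measured 35.0, 7.81, 87.1 and 156 CPM in controls 1, 2, 5 and 6, 129, 43.6 and 68.1 CPM in shCBX7 1, 2 and 5, and 3.66, 13.8 and 10.4 CPM in shCBX8 1, 2 and 6. Here shCTR 2 lay within the shCBX8 range, so the groups overlapped. Sparcl1 (ENSMUSG00000029309, chromosome 5, 104079111 to 104113733, minus strand) fell 7.72-fold, a log2 fold change of -2.95 with SE 0.93 (adjusted p = 0.0373). Deviations from the group means correlated at 0.126 to 0.294 for same-numbered libraries of shCTR and shCBX8, and at -0.316 to 0.181 for different numbers. With the replicate number as a block, Sparcl1 was -2.33 and did not pass (adjusted p = 0.143). It also did not pass without shCBX8 1 (adjusted p = 0.126), shCBX8 6 (0.108), shCTR 5 (0.0685) or shCTR 6 (-2.22, 0.0733), whereas with the opposite-strand covariate it was -5.29 (adjusted p = 0.0165) and without shCTR 1 and 2 it was -3.73 (0.0194).

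Spp1 itself did not pass against control in either direction. It measured 8423, 8803, 12469 and 27484 CPM in controls 1, 2, 5 and 6, 42483, 24050 and 13910 CPM in shCBX7 1, 2 and 5, and 2624, 10758 and 2333 CPM in shCBX8 1, 2 and 6. Libraries shCBX8 1 and 6 lay below every control and shCBX8 2 lay within the control range, while shCTR 6 lay within the shCBX7 range. Spp1 (ENSMUSG00000029304, chromosome 5, 104435118 to 104441050, plus strand) had a log2 fold change of -1.45 in shCBX8 (SE 0.71, adjusted p = 0.142) and 0.91 in shCBX7 (SE 0.68, adjusted p = 0.929). Without shCBX8 2 the value in shCBX8 was -2.53 and passed (adjusted p = 0.0216), and with the opposite-strand covariate it was -4.01 and passed (adjusted p = 0.0138). Every shCBX8 library was below every library labelled shCBX7, and that difference passed: a log2 fold change of -2.36 with SE 0.77 (adjusted p = 0.0463), or 5.12-fold. The call ended in several fits: leaving out shCTR 1, shCTR 5, shCBX7 1, shCBX7 2, shCBX8 1 or shCBX8 6 moved the adjusted p to between 0.0566 and 0.155, while without shCBX8 2 the value was -3.45 (adjusted p = 0.00884). These levels rest on 108598 to 2018189 counts a library.

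Tnc and Fn1 did not pass in any of the 3 comparisons. Tnc, a large hexameric glycoprotein of repair and development, measured 312, 113, 494 and 968 CPM in controls 1, 2, 5 and 6, 1556, 571 and 652 CPM in shCBX7 1, 2 and 5, and 480, 766 and 271 CPM in shCBX8 1, 2 and 6. Its shCBX8 libraries all lay within the control range. Tnc (ENSMUSG00000028364, chromosome 4, 63959785 to 64047015, minus strand) had a log2 fold change of 0.10 in shCBX8 (SE 0.66, adjusted p = 0.92), whose sign changed without shCTR 1, shCTR 2 or shCBX8 2, and it was 0.97 in shCBX7 (SE 0.66, adjusted p = 0.929). Fn1 measured 1151, 2650, 1431 and 2212 CPM in controls 1, 2, 5 and 6, 736, 2289 and 3034 CPM in shCBX7 1, 2 and 5, and 761, 1433 and 675 CPM in shCBX8 1, 2 and 6. Library shCBX8 2 lay within the control range and the other shCBX8 libraries below it. Fn1 (ENSMUSG00000026193, chromosome 1, 71585520 to 71653200, minus strand) had a log2 fold change of -0.96 in shCBX8 (SE 0.50, adjusted p = 0.165) and 0.12 in shCBX7 (adjusted p = 0.991).

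**Figure D2:**
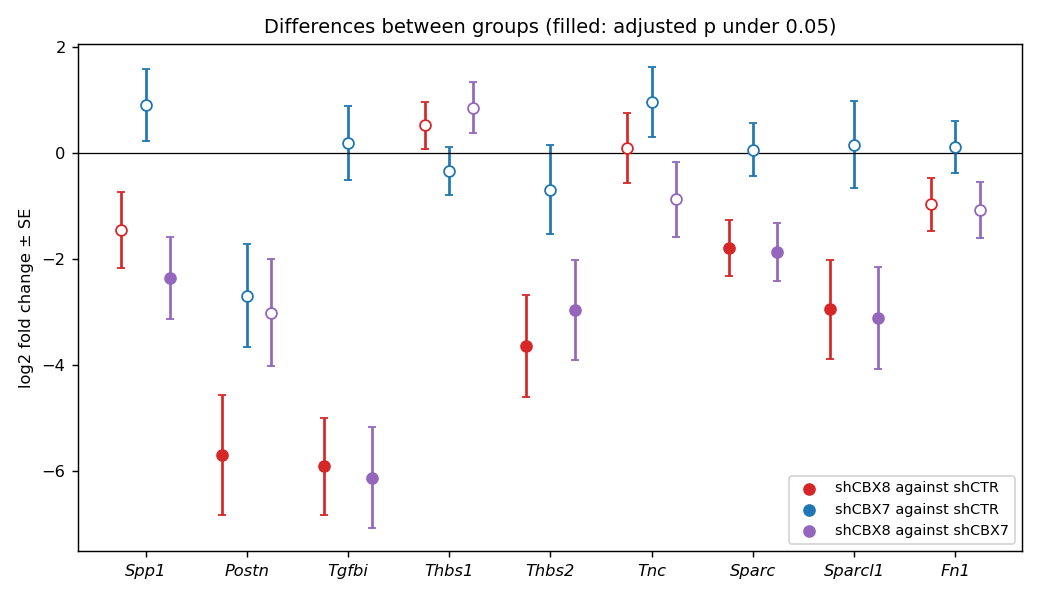
Log2 fold change (points) with its standard error (bars) for the 9 genes in the 3 comparisons; filled points passed at an adjusted p under 0.05 and open points did not. Tgfbi and Postn lie lowest against shCTR, at -5.92 and -5.70, and no point of shCBX7 against shCTR is filled.

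No member passed between the libraries labelled shCBX7 and shCTR, a comparison in which edgeR called 0 of 16669 genes (0%), 975 genes had an unadjusted p under 0.05 (5.85%), and DESeq2 called 185 genes, none of them a member. The members' median log2 fold change was 0.12, against 0.00 over all genes. Postn, at -2.69, was the only member with an unadjusted p under 0.05. All members overlapped between these 2 groups, in which 3.73% of all genes were lower and 1.7% higher without overlap.

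Between shCBX8 and shCBX7, 5 of the 9 members fell (Spp1, Tgfbi, Thbs2, Sparc and Sparcl1), where 13.3% of all genes fell and 15.3% rose, and where 20.3% of the genes at 50 CPM or more fell and 9.22% rose. These 5 and Postn were lower in every shCBX8 library than in every shCBX7 library, which held for 22.6% of all genes, with 25.6% higher without overlap. The log2 fold changes were -2.96 for Thbs2 (SE 0.95, adjusted p = 0.0441), -1.86 for Sparc (SE 0.55, adjusted p = 0.033) and -3.11 for Sparcl1 (SE 0.96, adjusted p = 0.039). Each of these 3 calls ended without shCBX8 1, shCBX8 6, shCBX7 1 or shCBX7 2 (adjusted p = 0.0508 to 0.145) and with the opposite-strand covariate (0.0614 to 0.0676). That of Thbs2 also ended without shCTR 1 or 5 (0.0594 and 0.0616), and that of Sparcl1 without shCTR 5 or shCBX7 5 (0.056 and 0.0567). With the replicate number as a block, fitted over all 10 libraries, 3 members passed. The calls of Spp1 (-2.73, adjusted p = 0.0667) and Sparcl1 (-3.21, 0.0662) ended. Only numbers 1 and 2 occur in both shCBX8 and shCBX7. Thbs1 (0.86, adjusted p = 0.201), Tnc (-0.87, 0.377) and Fn1 (-1.08, 0.15) did not pass.

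Spp1 and Sparcl1 lie in 1 stretch of chromosome 5, with the genes of the other SIBLING proteins, acidic phosphoproteins of bone and tooth. Between Sparcl1 and Pkd2 the GENCODE annotation places 7 protein-coding genes over 427 kb, in the order Sparcl1, Dspp, Dmp1, Ibsp, Mepe, Spp1 and Pkd2. Dspp (0 to 20 counts a library), Ibsp (0 to 5) and Mepe (0 to 3) were near 0 throughout and were not tested. Dmp1 measured 13.5, 9.66, 48.3 and 626 CPM in controls 1, 2, 5 and 6, 446, 47.6 and 61.2 CPM in shCBX7 1, 2 and 5, and 5.21, 7.90 and 37.1 CPM in shCBX8 1, 2 and 6. Like Sparcl1, Tnc and Spp1, it was highest among the controls in shCTR 6 and highest among the shCBX7 libraries in shCBX7 1. In shCBX8 it had a log2 fold change of -3.38 with SE 1.66, which did not pass (adjusted p = 0.141). Without shCTR 6 it was -0.51, and with the opposite-strand covariate it was -6.28 and passed (adjusted p = 0.0276).

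Pkd2, the gene of the cation channel polycystin 2 and 18.4 kb beyond the end of Spp1, fell in shCBX8 with a smaller SE than either member of the stretch had. It measured 388, 685, 441 and 605 CPM in controls 1, 2, 5 and 6, 445, 658 and 418 CPM in shCBX7 1, 2 and 5, and 86.0, 217 and 88.8 CPM in shCBX8 1, 2 and 6. The shCBX8 libraries lay below all others. Against shCTR its log2 difference was -2.02 with SE 0.38 (adjusted p = 0.00613), a call that remained under all 22 other settings tried for it, and -1.96 against shCBX7 (adjusted p = 0.00942).

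**Figure D3:**
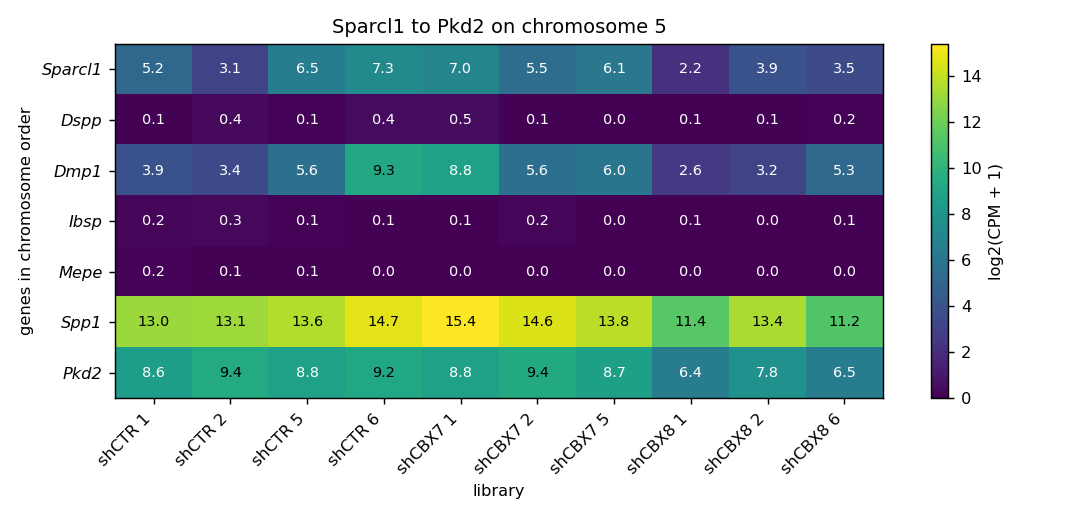
Heat map of log2(CPM + 1) for the 7 protein-coding genes from Sparcl1 to Pkd2 (rows, in chromosome order) in each library (columns), with the value in each cell. Spp1 is the brightest row, while Dspp, Ibsp and Mepe are near 0 in all 10 libraries.

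Osteopontin and its neighbours are known from bone, and osteopontin also from macrophages, so markers of both were read. Of the 9 bone and cartilage genes, Ibsp, Bglap, Sp7 and Acan were near 0 and not tested. In shCTR, Sox9 averaged 35.3 CPM, Runx2 15.8, Col2a1 13, Phex 3.88 and Alpl 0.743. The list summed to 50.8 to 107 CPM in shCTR, 45.4 to 66.8 CPM in shCBX7 and 37.4 to 40.2 CPM in shCBX8. Of the 5 tested, Runx2 fell (-1.07, adjusted p = 0.0172) and none rose, where 15.9% of all genes fell. Only Alpl was above 0 (0.99, adjusted p = 0.291). The call of Runx2 ended without shCBX8 1 (0.0745), shCBX8 6 (0.0719) or shCTR 1 and 2 (0.102) and with the opposite-strand covariate (0.304). Of the macrophage markers, Ptprc was at most 1.58 CPM, Csf1r at most 0.855 CPM and C1qa at most 0.15 CPM in any library. Of the 11 tested, 3 rose in shCBX8 and none fell, where 17% of all genes rose. These were Cd14 (30.6 to 129 CPM, adjusted p = 0.00233), Cd68 (2.56 to 8.31 CPM, 0.00726) and Aif1 (0.229 to 0.742 CPM, 0.0208), as group means in shCTR and shCBX8. The macrophage list summed to 33.3 to 53.5 CPM in shCTR, 18.3 to 66.5 CPM in shCBX7 and 104 to 181 CPM in shCBX8, where Cd14 gave most of the sum. The part of either list in the level of Spp1 was not tested.

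The protein-coding genes most like Spp1 over the 10 libraries, among those averaging 5 CPM or more, were Mvk (Pearson r of log2(CPM + 1) = 0.988), Csgalnact1 (0.985), Kctd12, Pi4k2a and Fam126a (0.981 each). These values describe 10 libraries that share their groups, and the order depends on the measure: by rank correlation none of the 5 was among the nearest 5, and by deviations from the group means only Mvk was (0.972). Mvk, the mevalonate kinase of sterol synthesis, measured 27.1, 28.6, 33.2 and 40.9 CPM in controls 1, 2, 5 and 6, 42.9, 41.5 and 34.3 CPM in shCBX7 1, 2 and 5, and 18.3, 29.1 and 18.4 CPM in shCBX8 1, 2 and 6. It spanned a narrower range than Spp1 and like it was highest in shCBX7 1 and lowest in shCBX8 1 and 6, with shCBX8 2 inside the control range.

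Of 20 other matricellular genes, 18 could be tested; in shCBX8 2 rose and 3 fell, with a median log2 fold change of -0.90; over all genes 17% rose and 15.9% fell, with a median of -0.01. The list median turned to 0.51 with the opposite-strand covariate and 0.44 without shCTR 1 and 2, and was -0.24 without shCTR 2; with the replicate block 6 fell. The risers were the integrin-binding CCN proteins Ccn1, from 163 ± 34.4 CPM (SD, n = 4) to 354 ± 95.8 CPM (n = 3; 1.12, adjusted p = 0.0243), and Ccn2, from 93.0 ± 69.3 to 296 ± 60.6 CPM (1.67, adjusted p = 0.0477). The testican Spock2 fell from 2.29 ± 0.995 to 0.377 ± 0.128 CPM (-2.57, adjusted p = 0.00442), and Thbs3 from 28.2 ± 21.6 to 6.31 ± 3.92 CPM (-2.16, adjusted p = 0.0445). Tnn (tenascin N) fell from 12.2, 205, 2.35 and 0.288 CPM in controls 1, 2, 5 and 6 to 0.0628, 0.391 and 0.193 CPM (-8.04, adjusted p = 0.0445); its groups overlap, and without shCTR 2 the value was -4.57 (adjusted p = 0.0916). Of these 5 calls, only that of Spock2 remained without shCBX8 1 and without shCBX8 6, each left out in turn. No gene of the list passed in shCBX7.

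All 19 receptor genes were tested; in shCBX8 2 rose and 6 fell (17 and 15.9% over all genes), with a median of 0.11. The sign of that median turned with the opposite-strand covariate (-0.67), without shCBX8 2 (-0.46), without shCTR 1 and 2 (-0.20), without shCTR 2 (-0.07) and with the replicate block (-0.01). Itga8 and Itga9, whose pairs with integrin beta 1 bind osteopontin and tenascin C, were among those that fell. Itga8 measured 165 to 182 CPM in the 4 controls, 156 to 213 CPM in shCBX7, and 11.7, 47.1 and 10.5 CPM in shCBX8 1, 2 and 6 (-2.89, adjusted p = 0.00476). Itga9 measured 10.4 to 16.1 CPM in the controls and 4.28 to 4.75 CPM in shCBX8 (-1.60, adjusted p = 0.00267), and both calls remained under all 22 other settings. The common partner Itgb1 fell from 1318 ± 81.6 to 803 ± 97.0 CPM (-0.71, adjusted p = 0.0113), Itgav from 442 ± 55.1 to 310 ± 47.0 CPM (-0.51, adjusted p = 0.0391), Itgb5 from 179 ± 73.9 to 57.6 ± 10.7 CPM (-1.63, adjusted p = 0.0288) and the endocytic receptor Lrp1 from 2351 ± 1010 to 505 ± 435 CPM (-2.22, adjusted p = 0.0243). The epithelial Itgb6 rose from 3.92 ± 2.79 to 25.3 ± 10.5 CPM (2.68, adjusted p = 0.0211), as did the heparan sulfate proteoglycan Sdc4 from 540 ± 168 to 900 ± 179 CPM (0.74, adjusted p = 0.0491). The osteopontin receptors Cd44 (0.15, adjusted p = 0.815) and Itgb3 (0.31, adjusted p = 0.787) did not pass, and both values changed sign without shCBX8 2. The call of Sdc4 ended with the replicate block (adjusted p = 0.0662) and remained in 8 of 22 other settings. Itgb5 and Sdc4 lie outside the naming rule and were named after their values were seen. Without shCBX8 1, 3 receptors fell, without shCBX8 6 2 fell, and none rose in either fit. With library size as the only scaling, the call of Itgav ended (adjusted p = 0.142).

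Of 16 genes of processing and assembly 14 were tested, and in shCBX8 5 fell and none rose (median -0.75; 15.9 and 17% over all genes). The metalloproteinase Adamts1, which cleaves matrix proteoglycans and thrombospondins, fell from 730 ± 510 to 115 ± 33.5 CPM (-2.67, adjusted p = 0.0168), and the gelatinase Mmp2 from 1284 ± 336 to 194 ± 232 CPM (-2.73, adjusted p = 0.0233). Bmp1, a procollagen proteinase, and P4ha1, a collagen prolyl hydroxylase subunit, fell by 0.75 each on the log2 scale (adjusted p = 0.031 and 0.0373), and Adamts4 by 2.14 (adjusted p = 0.0335). None of the 5 passed without shCBX8 1, without shCBX8 6 or without shCTR 1 and 2.

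Of 15 TGF-beta genes, 3 rose and 5 fell in shCBX8 (median -0.61; 17 and 15.9% over all genes). The ligand Tgfb2 rose (1.26, adjusted p = 0.0381) as did Skil (0.87, adjusted p = 0.0154), and the ligand Tgfb3 fell (-0.44, adjusted p = 0.0492); these 3 were named after their values were seen. The call of Tgfb3 ended with the replicate block (adjusted p = 0.109) and with library size as the only scaling (0.245), and remained in 6 of 22 other settings. The corepressor Ski fell from 93.7 ± 7.36 to 52.9 ± 10.3 CPM (-0.83, adjusted p = 0.00436) and the feedback inhibitor Smad7 from 21 ± 3.04 to 13.8 ± 0.498 CPM (-0.61, adjusted p = 0.0141). The latent binding proteins Ltbp2 (216 ± 136 to 25.0 ± 19.2 CPM, -3.11, adjusted p = 0.0112) and Ltbp4 (17.1 ± 10.2 to 2.58 ± 1.61 CPM, -2.74, adjusted p = 0.0121) fell too. With the opposite-strand covariate none of this list rose and 3 fell, with library size only or no filter 3 fell, and with the replicate block 8 fell. Without shCBX8 1, 1 gene of this list rose and 1 fell, and without shCBX8 6 1 rose and 2 fell. No gene of the receptor, processing or TGF-beta lists passed in shCBX7, and against shCBX7 these lists had 2, 0 and 2 genes higher and 4 each lower in shCBX8.

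**Figure D4:**
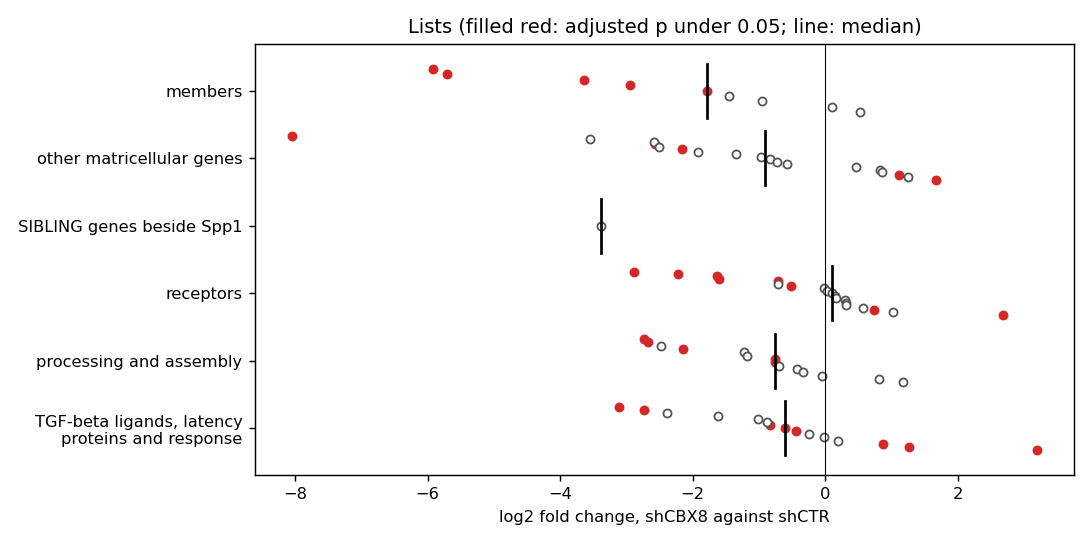
Log2 fold change, shCBX8 against shCTR, of each tested gene of the member set and the 5 lists (points, spread vertically by rank within a list); filled red points passed at an adjusted p under 0.05 and black lines are medians. The member median lies at -1.79, the receptor median at 0.11, a sign that turned in 5 of the 22 other fits.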

How the data were processed

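The deposited values are raw read counts per Ensembl gene for each of the 10 libraries, in 3 columns that STAR writes (both strands together, forward strand, reverse strand). Per the labels' protocols, libraries were made from 500 ng of total RNA with a stranded total RNA kit. Per the submitters' processing notes, bcl2fastq 2.17, Trim Galore 0.4.3, STAR 2.5.0a and the mm10 build were used; no annotation release is named in these sources. The design text gives 3 replicates per treatment, while the labels give 4 shCTR libraries.

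The reverse-strand counts were used, since the forward-strand column held 3.42 to 10.4% of the stranded gene counts. Rows without a gene stayed out of library sizes and tests: 5.03 to 21.7% of reads were unmapped, 15.4 to 22.1% mapped to several places, 12.5 to 23.6% fell in no gene and 0.290 to 0.637% were ambiguous. GENCODE M21 (GRCm38) gave symbols, coordinates and exon lengths for 40217 of 41091 identifiers, and RefSeq (GRCm38.p6) the promoters. Same-group libraries differed by more than sampling noise, so each counted as 1 replicate. Between shCBX8 1 and 6 the chi-square per degree of freedom was 27.8, against 102 to 406 for every other same-group pair. These 2 libraries were thus the most alike. Such differences do not show that libraries came from separate animals or cultures.

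Genes passing filterByExpr (minimum count of 10; 16669 genes) were scaled by TMM factors and tested with edgeR 4.0.16 (R 4.3.3), glmQLFit and glmQLFTest over all 10 libraries with group as the only factor, with Benjamini-Hochberg adjustment over all genes and a threshold of 0.05. The common biological coefficient of variation was 0.375. The scripts were tested on simulated data. Log2 fold changes are edgeR's. DESeq2 1.42.0 and the other settings in the closing section are alternatives.

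Members and lists were chosen with earlier results of these data known. Named were all 9 members, the protein-coding genes from Sparcl1 to Pkd2, up to 5 genes of each list with the smallest p in shCBX8 against shCTR, Ibsp, Cd44, Itgav, Itgb1 and Itgb3, and the 5 genes most like Spp1. A gene of the TGF-beta list that this rule names is not reported here. The main tests did not pair libraries, and the replicate number entered only as a block in a further fit. Deviations from the group means of same-numbered shCBX8 and shCTR libraries had r = 0.226, 0.294 and 0.126 for numbers 1, 2 and 6. Libraries of different number had -0.316 to 0.181, so number 6 did not stand apart. Any pairing comes from the data, as the labels do not say what a number marks. For shCBX7 and shCTR the same-numbered values were -0.070, 0.758 and 0.411 (numbers 1, 2 and 5).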

Additional observations from a re-analysis of the deposited data

Results flagged for a closer look

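In 3 of the 42 sets of 4 control values examined, a single library lay far from the other 3 on the CPM scale. A chance rate of about 5% of such sets would hold only for normally distributed values, which was not tested for CPM. Each of the 3 library values was the highest of its set, and log values were not examined for such gaps. Whether these libraries stand apart beyond chance therefore cannot be decided here. Dmp1, the bone and dentin phosphoprotein gene beside Spp1, measured 626 CPM in shCTR 6 and 9.66 to 48.3 CPM in the other controls (a gap of 0.937 of the range). Ccn2 measured 196 CPM in shCTR 6 and 48.5 to 67.8 CPM in the others (0.870). Tnn measured 205 CPM in shCTR 2 and 0.288 to 12.2 CPM in the others (0.942). Groups of 3 libraries were not examined in this way.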

How the results depend on the processing

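Besides the settings named above, the fits were repeated with library size only or RLE factors as the scaling, genes averaging 1 CPM or more, all genes with a count, DESeq2, counts from both strands, forward-strand counts subtracted, only the 2 groups compared, the replicate block, the opposite-strand covariate, scaling without the 10 most abundant genes, a threshold of 0.01 and each library left out in turn. The values of the list genes under these settings were added after the data were seen. For shCBX8 against shCTR, 5478 genes and 5 members passed; with the covariate these were 2308 and 3, without shCTR 1 and 2 they were 2409 and 3, at the threshold of 0.01 they were 1844 and 2, and with a library left out 2261 to 6193 and 2 to 6. With the replicate block 6036 genes and 4 members passed, and the only member call it changed in that comparison was that of Sparcl1. For shCBX8 against shCBX7, 4762 genes and 5 members passed; at 0.01 they were 1349 and 1, with a library left out 1784 to 6005 and 1 to 6, and 3 members passed with the block and 3 with the covariate. For shCBX7 against shCTR no gene passed, except 185 with DESeq2 and 0 to 41 with a library left out (41 without shCTR 6); no member passed in any of these. With library size only, 67.2% of the calls in shCBX8 against shCTR were rises (51.6% otherwise) and 67.1% against shCBX7 (53.5% otherwise), the median of all genes moved from -0.01 to 0.17 and from 0.00 to 0.15, and the same number of members stayed below 0 (7 and 8). The sign of Tnc in shCBX8 against shCTR turned with the covariate (-1.85) and without shCTR 1 and 2 (-0.55), and ran from -0.33 to 0.72 with a library left out. In the same comparison Cd44 was -1.18, Itgb3 -2.30, Tgfb3 0.03 and Tnn 0.62 with the covariate; without shCTR 1 and 2 Cd44 was -0.25 and Itgb3 -0.20; with a library left out values ran from -0.35 to 0.47 for Cd44 and from -0.46 to 0.92 for Itgb3. In shCBX7 against shCTR, where no member passed, the covariate turned the sign of Spp1 (-2.29), Postn (3.32), Tgfbi (-0.61), Thbs2 (0.37), Tnc (-1.75), Sparc (-0.53), Sparcl1 (-3.11) and Fn1 (-0.44). Without shCTR 1 and 2, Tgfbi was -0.19, Thbs2 0.24 and Sparcl1 -0.59, and with the block Fn1 was -0.05. With a library left out, values there ran from -0.51 to 0.56 for Tgfbi, -0.55 to 0.12 for Thbs1, -0.40 to 0.48 for Sparc, -0.35 to 0.89 for Sparcl1 and -0.29 to 0.53 for Fn1. The cause of these turns was not tested. Set to the longest transcript, the shCTR level per length was 808 for Sparc, 420 for Postn and 224 for Fn1. Groups of 3 and 4 libraries limit the precision, as do the counts of Tgfbi in shCBX8 (22 in shCBX8 1).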
